A study of Mus musculus with 4 samples.

Results

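Genes of the ESCRT-III membrane repair machinery were followed through the immune cells of the mouse lung, with and without Lmna. The 10 genes, Chmp2a, Chmp2b, Chmp3, Chmp4b, Chmp6, Chmp7, Vps4a, Vps4b, Ist1 and Pdcd6ip, were chosen by symbol, and each was found once among the 31053 genes of the deposited tables. The knockout mice were Lmna-flox/flox with Vav1-cre+/-, and the WT mice were Lmna-flox/flox with Vav1-cre-/-, so both groups carried the floxed allele and they differed in Cre as well as in Lmna, whose parts cannot be told apart. Vav1-cre is active in blood-forming cells and their descendants. All mice were C57BL/6J and 10 weeks old, and live CD45.2+ cells were sorted from their lungs and sequenced as single cells with a 3-prime kit, giving 2 Lmna-KO libraries and 2 WT libraries. Nothing in the labels says whether a library was a single animal beyond the count of 2 mice per genotype, so the p-values measure the spread between these libraries.

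ESCRT-III proteins assemble as spiral filaments on the inner side of a membrane neck and close it. They act in the sorting of receptors into multivesicular endosomes, in the last cut of cell division, in the budding of some viruses and in the resealing of torn plasma, lysosomal and nuclear membranes. The lamina, built in part of lamins A and C from Lmna, lies under the nuclear envelope, and ruptures of that envelope recruit ESCRT-III. Macrophages and neutrophils engulf particles and squeeze through tissue, so their membranes are often strained.

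The 4 libraries held 16528 cell barcodes and 97109691 UMIs (unique molecular identifiers, each standing for 1 captured RNA molecule), and 14720 cells remained after filtering. Any 2 libraries shared at most 7 barcodes. Cells were assigned to classes by the number of fixed marker genes in which they had a UMI, and none of those markers is a gene described here. Of these classes, 8 had at least 25 cells in every library and were tested: alveolar macrophage-like, classical monocyte-like, nonclassical monocyte-like, neutrophil-like, NK cell-like, CD4 T cell-like, CD8 T cell-like and B cell-like cells. Summed UMIs per library and class ran from 562429 to 4296023, and levels are given as CPM, the UMIs of a gene scaled to a common total for the class, which are not divided by transcript length. The library WT 2 held 405 cells with markers of T cell precursors, against 11 in Lmna-KO 2 and 0 in Lmna-KO 1 and WT 1, and these cells were kept out of every class tested.

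Lmna was read first, as a check on the labels. In alveolar macrophage-like cells it had 57.0 and 74.7 CPM in the Lmna-KO libraries, against 396 and 337 CPM in the WT libraries. The log2 fold change was -2.41 ± 0.18 (SE, edgeR quasi-likelihood test, adjusted p = 4.6e-10). In NK cell-like cells Lmna had 3.95 and 9.65 CPM in Lmna-KO and 24.5 and 25.9 CPM in WT, a log2 fold change of -1.80 ± 0.39 (edgeR adjusted p = 0.0221). That call was lost with the DESeq2 Wald test (adjusted p = 0.635), without WT 1 (edgeR adjusted p = 0.0754) and without Lmna-KO 1 (0.144). The other 6 tested classes had at most 15.4 CPM of Lmna in any library, and it was tested in B cell-like, CD4 T cell-like and classical monocyte-like cells and called in none of them by edgeR (adjusted p = 0.074, 0.891 and 0.906). Some classes too small to test had more. In basophil or mast cell-like cells Lmna averaged 149 ± 61.4 CPM in Lmna-KO and 179 ± 141 CPM in WT (SD, n = 2 each), and the libraries overlapped. In conventional dendritic cell-like cells it averaged 54.3 ± 39.3 CPM in Lmna-KO and 177 ± 114 CPM in WT (SD, n = 2 each). There both Lmna-KO libraries lay below both WT libraries. The alveolar macrophage-like cells were themselves unequal in number, with 48 and 31 cells in Lmna-KO and 199 and 214 cells in WT. All 14 of their markers were detected in at least 10% of these cells in each library, in 54.2% to 100% of cells in Lmna-KO and 67.3% to 100% in WT.

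Promoters are shown for Chmp2a and Chmp2b, which encode related ESCRT-III subunits, and for Pdcd6ip, whose level separated the classes most cleanly. In CPM, Chmp2a and Chmp2b were both highest in nonclassical monocyte-like cells but differed in neutrophil-like cells, as given below. Each line gives 300 bases, from 250 before to 50 after the start of the gene, on the strand of the gene, from RefSeq on GRCm38.p6. Capitals mark matches to 6 motifs searched on both strands: the NRF1 motif (the first capitals of the Chmp2a line), TGACGTCA (CRE), TCACGTGA (the core of the CLEAR element of lysosomal genes), CACGTG (E-box, which lies inside the CLEAR core), CCGGAAGT (ETS) and GGGCGG (GC box). Windows of this kind were at hand for 8 of the 10 genes.
Chmp2a, chr7:13034728-13035027, minus strand: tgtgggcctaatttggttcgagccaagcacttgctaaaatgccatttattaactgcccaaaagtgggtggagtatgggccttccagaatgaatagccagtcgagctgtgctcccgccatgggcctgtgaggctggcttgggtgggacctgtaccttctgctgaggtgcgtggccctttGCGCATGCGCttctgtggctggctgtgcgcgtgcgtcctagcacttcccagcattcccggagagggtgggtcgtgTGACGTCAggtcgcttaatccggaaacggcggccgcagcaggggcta
Chmp2b, chr16:65562713-65563012, minus strand: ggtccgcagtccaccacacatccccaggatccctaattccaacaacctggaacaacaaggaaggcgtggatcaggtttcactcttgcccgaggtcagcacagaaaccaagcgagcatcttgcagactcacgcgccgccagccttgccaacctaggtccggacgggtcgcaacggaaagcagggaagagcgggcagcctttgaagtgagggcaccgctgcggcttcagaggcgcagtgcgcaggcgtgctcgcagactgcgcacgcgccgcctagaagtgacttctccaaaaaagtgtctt
Pdcd6ip, chr9:113708210-113708509, minus strand: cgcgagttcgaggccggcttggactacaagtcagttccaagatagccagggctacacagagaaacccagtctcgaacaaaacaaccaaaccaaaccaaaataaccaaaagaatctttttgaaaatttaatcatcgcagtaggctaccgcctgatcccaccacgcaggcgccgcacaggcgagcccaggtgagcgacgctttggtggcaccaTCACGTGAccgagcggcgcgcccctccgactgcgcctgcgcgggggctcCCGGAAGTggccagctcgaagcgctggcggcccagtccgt

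The Chmp2a window held the NRF1 motif at -72 and CRE at +4, which occur in 0.971% and 1.79% of the 32851 promoter windows. The Pdcd6ip window held the CLEAR core at -39 (0.974% of windows), with the E-box inside it (7.15%), and the ETS motif at +11 (3.89%). None of these letters was found in the Chmp2b or Vps4b window, and the GC box, present in 35.7% of all windows, was found in those of Chmp3, Chmp4b, Ist1 and Vps4a. A match is a string of letters and says nothing of binding in these cells.

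In CPM, the summed level of the 10 genes was highest in the macrophage-like and monocyte-like classes and lowest in the T and B cell-like classes. These sums are not corrected for differences between classes in RNA composition, given below, so the order holds for CPM only. In alveolar macrophage-like cells the sum was 1252 and 1248 CPM in Lmna-KO and 1159 and 1187 CPM in WT. Nonclassical monocyte-like cells had 1197 and 1114 CPM in Lmna-KO and 1157 and 1147 CPM in WT. In B cell-like cells, at the other end, the sum was 568 and 544 CPM in Lmna-KO and 515 and 516 CPM in WT, and CD4 T cell-like and CD8 T cell-like cells stood next to them. NK cell-like cells, though lymphocytes, had 1002 and 959.9 CPM in Lmna-KO and 904 and 918 CPM in WT, above the T and B classes in every library. Neutrophil-like cells overlapped them, with 996 and 981 CPM in Lmna-KO and 951 and 814 CPM in WT.

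**Figure D1:**
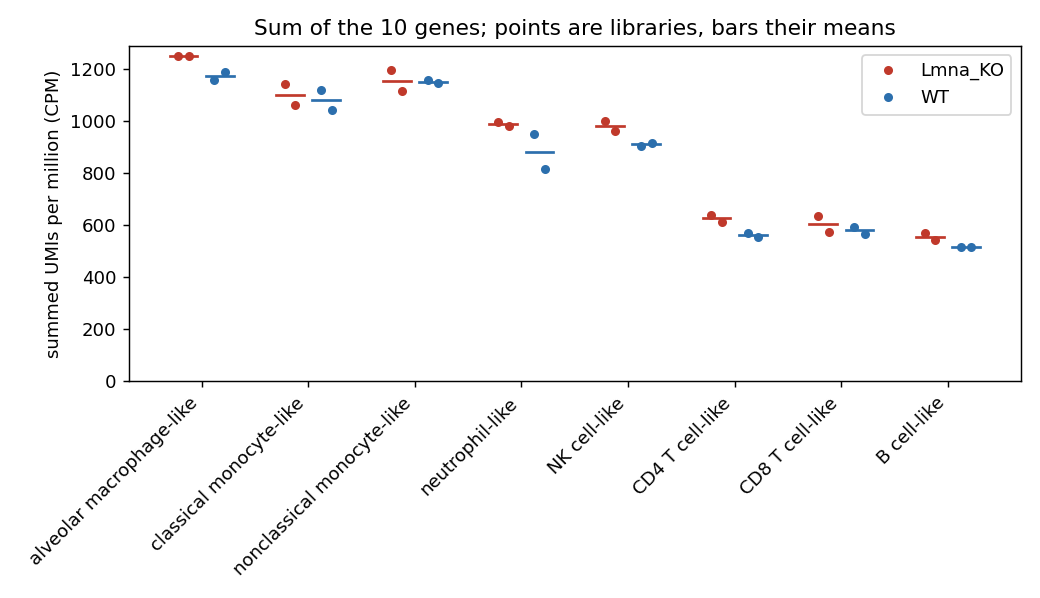
Summed level of the 10 genes in CPM (y axis) in each class (x axis), with Lmna-KO libraries on the left in red, WT libraries on the right in blue and a bar at each mean of 2 libraries. The alveolar macrophage-like, monocyte-like, neutrophil-like and NK cell-like sums lie between 814 and 1252 CPM, and the T and B cell-like sums between 515 and 641 CPM. The sums are not corrected for RNA composition.

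Each class was then set against the mean of the other 7, with the library kept as a block in edgeR. In alveolar macrophage-like cells 7 of the 10 genes were higher and 0 lower, where 39.6% of all genes tested were higher and 29.9% lower. Classical monocyte-like cells had 6 higher and 0 lower (35.4% and 22.9% of all genes), and nonclassical monocyte-like cells also had 6 higher and 0 lower (32.6% and 19%). In B cell-like cells 0 were higher and 7 lower, where 42.1% of all genes were higher and 26.6% lower. The T cell classes were alike in direction, with 0 higher and 7 lower in CD4 T cell-like cells (34.7% and 28.2% of all genes) and 0 higher and 6 lower in CD8 T cell-like cells (38.3% and 29.3%). NK cell-like cells were mixed, with 2 higher (31.3% of all genes) and 5 lower (24.3%). Neutrophil-like cells had 5 higher (33.5%) and 2 lower (40%).

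The neutrophil-like and NK cell-like counts depended on the scaling. In neutrophil-like cells the 5 most counted genes took 18.5% to 23.2% of the UMIs, and the TMM factors that correct for such composition were 0.557 to 0.646, against 1.25 to 1.31 in NK cell-like cells. Without this correction 5 genes were higher and 5 lower in neutrophil-like cells, and 5 higher and 2 lower in NK cell-like cells. It also placed the median of all genes at -1.12 and 0.45 on the log2 scale in these classes, against -0.33 and 0.04 with the correction. Levels in CPM carry no such correction, so neutrophil-like CPM and the fitted differences need not rank alike.

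**Figure D2:**
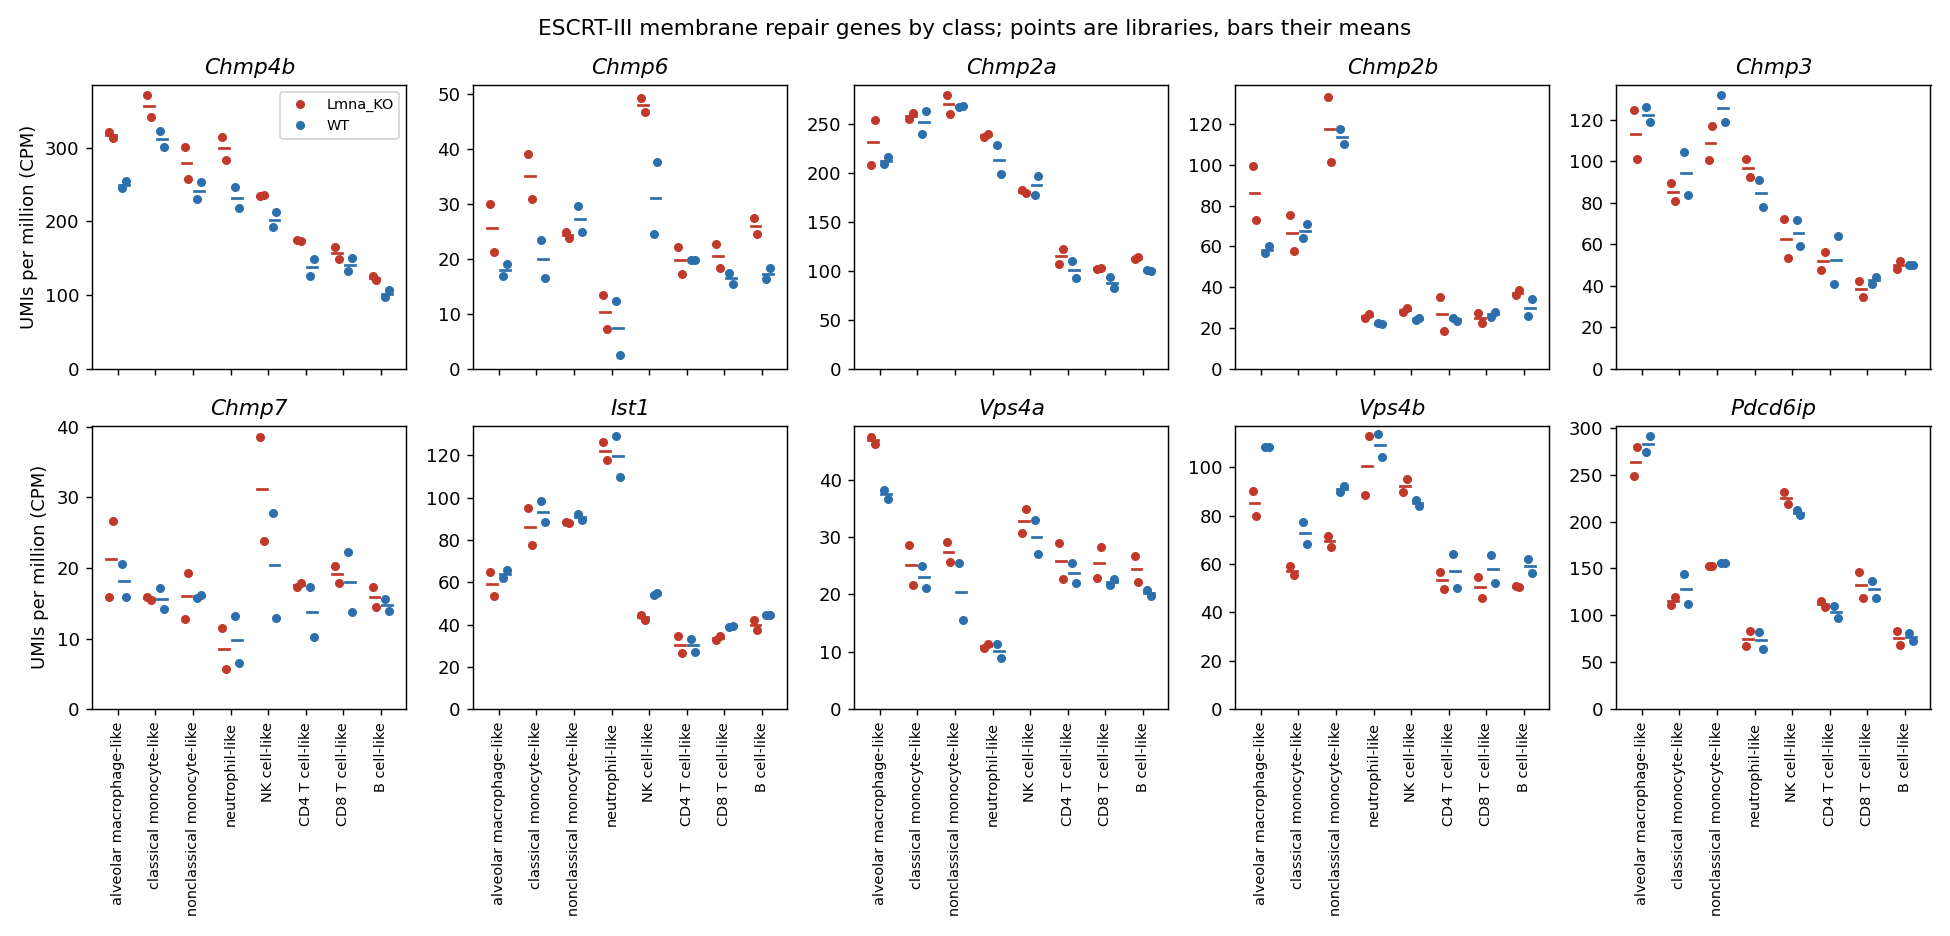
Level of each gene in CPM (y axis, starting at 0 and different for each panel) in the 8 classes (x axis); points are libraries, Lmna-KO on the left in red and WT on the right in blue, and bars are means of 2 libraries. Chmp2b peaks in nonclassical monocyte-like cells, Ist1 in neutrophil-like cells, and Pdcd6ip and Vps4a in alveolar macrophage-like cells.

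Among the filament proteins, Chmp4b (ENSMUSG00000038467, mm10 chr2:154651705-154694785) encodes the subunit that forms most of the ESCRT-III polymer. In CPM it was highest in classical monocyte-like cells, with 372 and 341 CPM in Lmna-KO and 324 and 301 CPM in WT. There its log2 difference from the other classes was 0.81 ± 0.05 (SE, edgeR adjusted p = 1.5e-21). The next 4 classes were alveolar macrophage-like (284 ± 38.9 CPM, SD over the 4 libraries), neutrophil-like (266 ± 42.6), nonclassical monocyte-like (261 ± 29.9) and NK cell-like cells (219 ± 20.7), and each overlapped the next in range. The lowest was the B cell-like class, with 113 ± 12.8 CPM (SD, 4 libraries) and a log2 difference of -1.11 ± 0.05 (edgeR adjusted p = 2.7e-26). It overlapped no other class. On the fitted log2 scale, neutrophil-like cells had the largest Chmp4b difference, 1.20 ± 0.05 (SE, edgeR adjusted p = 9.8e-28). Without composition scaling it was 0.39, against 0.77 in classical monocyte-like cells.

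Chmp3 (chr6:71543797-71582609) and Chmp2a (chr7:13032010-13034807) encode late subunits that cap the CHMP4 filament and take on VPS4. Chmp3 had 118 ± 11.5 CPM in alveolar macrophage-like and 117 ± 12.8 CPM in nonclassical monocyte-like cells (SD, 4 libraries), which did not differ beyond their spread, and 40.5 ± 4.17 CPM in CD8 T cell-like cells, the lowest class. In CPM, Chmp2a was highest in nonclassical monocyte-like cells, at 269.8 ± 8.03. Classical monocyte-like (255 ± 10.9), neutrophil-like (227 ± 18.8) and alveolar macrophage-like cells (222 ± 21.7) followed, each overlapping its neighbour. NK cell-like cells stood apart below these at 184 ± 8.82 CPM, and the T and B classes lay between 95.2 and 108 CPM on average. On the fitted log2 scale, neutrophil-like cells had the largest differences, 1.28 ± 0.06 for Chmp2a and 1.18 ± 0.09 for Chmp3 (SE, edgeR adjusted p = 3.4e-27 and 4.7e-17). Without composition scaling these were 0.47 and 0.37, below those of nonclassical monocyte-like cells, 0.76 and 0.79. Chmp2a and Chmp4b followed each other most closely of the 45 pairs of these genes, with a Pearson r of 0.90 over the 32 sums of library and class on the scale log2(CPM + 1). The sums share libraries and classes and have no p.

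Chmp2b (ENSMUSG00000004843, chr16:65539128-65562726) encodes a subunit related to CHMP2A, and human mutations in its counterpart cause a form of frontotemporal dementia. Its highest class mean in CPM was 4.82 times its lowest. On the fitted log2 scale Ist1 had the wider range of class differences, -1.10 to 2.01 against -1.09 to 1.66 for Chmp2b. Without composition scaling Chmp2b had the wider range, -0.86 to 1.72 against -1.07 to 1.19 for Ist1. In nonclassical monocyte-like cells Chmp2b had 134 and 101 CPM in Lmna-KO and 117 and 110.4 CPM in WT. Its log2 difference from the other classes there was 1.66 ± 0.08 (edgeR adjusted p = 9.5e-25). Alveolar macrophage-like and classical monocyte-like cells came next, at 72.4 ± 19.5 and 67.1 ± 7.94 CPM (SD, 4 libraries), and overlapped. The other 5 classes lay between 24.0 and 33.6 CPM on average and each overlapped the next, neutrophil-like cells included. Chmp2a, by contrast, had 227 CPM in neutrophil-like cells, close in CPM to its level in alveolar macrophage-like cells. Its fitted differences in these classes were 1.28 ± 0.06 and 0.19 ± 0.06, and 0.47 and 0.43 without composition scaling. The r of Chmp2a with Chmp2b was 0.64 over the 32 sums.

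Chmp6 (chr11:119913441-119919548) links ESCRT-II to CHMP4, and Chmp7 (chr14:69717000-69732541) is the subunit that brings ESCRT-III to the nuclear envelope. Both were counted in few UMIs. Chmp6 had 49.4 and 46.8 CPM in NK cell-like cells of Lmna-KO and 24.5 and 37.7 CPM in those of WT, where its difference from the other classes was 0.60 ± 0.14 (log2, SE, edgeR adjusted p = 3.0e-04), and 1.001 without composition scaling. It was lowest in neutrophil-like cells, at 8.85 ± 5.04 CPM (SD, 4 libraries). Chmp7 ranged between 9.21 and 25.7 CPM on average, its adjacent classes overlapped down to the B cell-like class, and no class differed from the others at an edgeR adjusted p under 0.05 with composition scaling. Without it, NK cell-like cells were higher by 0.74 and neutrophil-like cells differed by -0.97 on the log2 scale (edgeR adjusted p = 6.3e-05 and 5.5e-05). The smallest adjusted p with scaling was 0.0664, in NK cell-like cells, which had 38.5 and 23.8 CPM in Lmna-KO and 27.7 and 12.9 CPM in WT.

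Vps4a (chr8:107031222-107045755) and Vps4b (chr1:106764071-106796728) encode the ATPases that pull the filaments apart. Their patterns differed. Vps4a had 47.5 and 46.2 CPM in alveolar macrophage-like cells of Lmna-KO and 38.3 and 36.6 CPM in those of WT, above every other class in every library, with a log2 difference of 0.66 ± 0.11 (edgeR adjusted p = 2.4e-07). It was lowest in neutrophil-like cells, at 10.5 ± 1.10 CPM (SD, 4 libraries). Vps4b was highest in neutrophil-like cells, with 88.5 and 113 CPM in Lmna-KO and 114 and 104 CPM in WT, and a log2 difference of 1.42 ± 0.08 (edgeR adjusted p = 4.3e-22), which was 0.61 without composition scaling. Alveolar macrophage-like cells followed at 96.7 ± 14.0 CPM and overlapped them. The r of Vps4a with Vps4b over the 32 sums was -0.12.

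Ist1 (chr8:109671325-109693260) encodes a subunit that binds VPS4 and forms a coat with CHMP1B. It set neutrophil-like cells apart most of all, with 126 and 118 CPM in Lmna-KO and 129 and 109.9 CPM in WT, above every other class in every library. The log2 difference was 2.01 ± 0.08 (SE, edgeR adjusted p = 3.8e-31), and 1.19 without composition scaling. Classical and nonclassical monocyte-like cells followed at 89.8 ± 9.22 and 89.6 ± 1.78 CPM (SD, 4 libraries), which overlapped, and CD4 T cell-like cells were lowest at 30.3 ± 4.14 CPM.

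Pdcd6ip (chr9:113651744-113708259) encodes ALIX, the Bro1-domain protein that binds CHMP4 and calls ESCRT-III to wounded membranes. It had 248 and 279 CPM in alveolar macrophage-like cells of Lmna-KO and 275 and 291 CPM in those of WT. NK cell-like cells followed with 232 and 219 CPM in Lmna-KO and 212 and 207 CPM in WT, and nonclassical monocyte-like cells with 153 CPM in both Lmna-KO libraries and 156 CPM in both WT libraries. None of these 3 classes overlapped the next. The log2 difference was 0.98 ± 0.06 in alveolar macrophage-like cells and 0.42 ± 0.06 in NK cell-like cells (edgeR adjusted p = 1.5e-21 and 1.1e-07), and the NK cell-like value was 0.83 without composition scaling. In CPM, neutrophil-like cells, high in Ist1 and Vps4b, were lowest in Pdcd6ip at 74.3 ± 9.91 (SD, 4 libraries), overlapping B cell-like cells at 76.5 ± 6.96. On the fitted log2 scale B cell-like cells were lowest, at -0.98 ± 0.06 (SE, edgeR adjusted p = 1.8e-20). Neutrophil-like cells were at -0.13 ± 0.09 there (edgeR adjusted p = 0.184). Without composition scaling these were -0.89 and -0.94.

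On the opposite strand, genes overlap Chmp3 (1700040L08Rik), Vps4a (Gm16209 and Pdf) and Ist1 (Pkd1l3), and whether strand was used in counting is not given in the sources used here. Free RNA in the droplets was not removed, and no class is known to lack these genes, so no background share could be read.

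The comparison of genotypes asked whether loss of Lmna changed these genes in each class. In alveolar macrophage-like cells 1 of the 10, Chmp2b, was called at an edgeR adjusted p under 0.05, where 6.96% of the 8770 genes tested were called and 3.88% were called higher. It rose to 99.7 and 72.9 CPM in Lmna-KO, against 56.6 and 60.4 CPM in WT. Both Lmna-KO libraries lay above both WT libraries, and Lmna-KO 1 lay farthest out. The means were 86.3 ± 18.9 CPM in Lmna-KO and 58.5 ± 2.66 CPM in WT (SD, n = 2 each), and the log2 fold change was 0.64 ± 0.19 (SE, edgeR adjusted p = 0.0391). The counts behind these values were 63 and 41 UMIs in Lmna-KO and 182 and 168 UMIs in WT.

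The Chmp2b call did not hold in every setting. It was kept in 5 of 12 alternatives, and its log2 fold change stayed between 0.39 and 0.84. Without Lmna-KO 1 it was 0.39 (edgeR adjusted p = 0.451), without WT 1 it was 0.57 (0.284), and without WT 2 it was 0.69 (0.155). With each cell thinned to at most 5000 UMIs it was 0.40 (edgeR adjusted p = 0.618), and the DESeq2 Wald test gave an adjusted p of 0.474 for 0.64. A UMI of Chmp2b was found in 62.5% and 71.0% of these cells in Lmna-KO (exact Clopper-Pearson 95% intervals 47.4% to 76.0% and 52.0% to 85.8%) and in 53.8% and 55.6% in WT (46.6% to 60.8% and 48.7% to 62.4%, counting error only). Thinned to 7774 UMIs per cell, the shares were 50% and 48.4% in Lmna-KO and 33.2% and 34.9% in WT, over 38 and 31 cells in Lmna-KO and 184 and 189 cells in WT.

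The other 9 genes were not called in these cells. Chmp4b came closest, with 321 and 313 CPM in Lmna-KO and 246 and 254 CPM in WT, which did not overlap, and a log2 fold change of 0.41 ± 0.14 (edgeR adjusted p = 0.0648). Chmp6 had 30.1 and 21.3 CPM in Lmna-KO and 16.8 and 19.0 CPM in WT (0.61 ± 0.32, edgeR adjusted p = 0.297). Vps4a, at the values given above, had a log2 fold change of 0.39 ± 0.23 (edgeR adjusted p = 0.36). Vps4b went the other way, with 90.2 and 80.0 CPM in Lmna-KO and 109 and 108 CPM in WT (-0.27 ± 0.17, edgeR adjusted p = 0.398). Chmp2a had a log2 fold change of 0.19 ± 0.15 (edgeR adjusted p = 0.508) and Chmp7 one of 0.27 ± 0.35 (edgeR adjusted p = 0.731). Pdcd6ip and Ist1, at -0.03 and -0.04, and Chmp3, at -0.04, had log2 fold changes within 1 SE of 0, as did Chmp7. In all, both Lmna-KO libraries lay above both WT libraries in 4 of the 10 genes (Chmp2b, Chmp4b, Chmp6, Vps4a) and below in 1 (Vps4b), where 19.6% and 31.5% of genes with at least 20 UMIs did so. The median log2 fold change was 0.23 over the 10 genes and 0.00 over all genes tested.

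**Figure D3:**
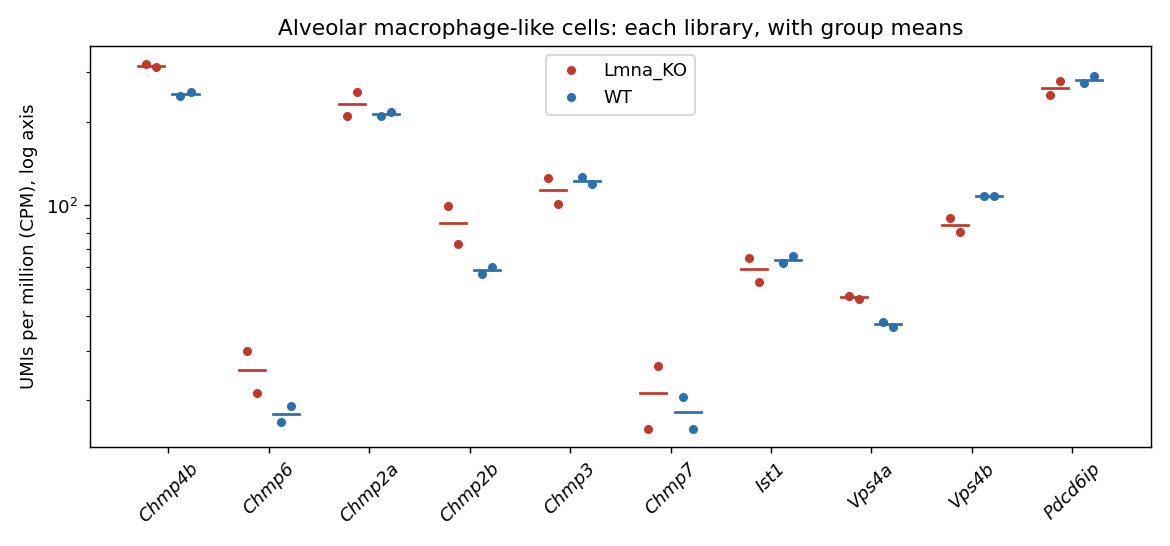
Level of each gene (x axis) in CPM (y axis, log scale) in alveolar macrophage-like cells, with the 2 Lmna-KO libraries on the left in red, the 2 WT libraries on the right in blue and bars at the means. Chmp2b, Chmp4b, Chmp6 and Vps4a lie higher in both Lmna-KO libraries and Vps4b lower, and the other 5 genes overlap.

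Some markers of other cell types also differed in the alveolar macrophage-like sums. Of 23 marker lists of other types, the summed level was above both WT libraries in both Lmna-KO libraries for 4 and below for 6. The 9 neutrophil markers summed to 307 and 244 CPM in Lmna-KO and 177 and 150.2 CPM in WT, with Mmp9 at 0 in both Lmna-KO libraries; taken singly, 1 of the 9 lay above both WT libraries in both Lmna-KO libraries and 3 lay below. The 7 nonclassical monocyte markers summed to 347 and 402 CPM in Lmna-KO and 276 and 346 CPM in WT, with none at 0, 1 singly above and 2 below. The 7 interstitial macrophage markers summed to 116 and 123 CPM in Lmna-KO and 83.7 and 89.1 CPM in WT. Singly, 2 lay above and 2 below, with C1qa and Folr2 at 0 in Lmna-KO and C1qc and Folr2 at 0 in WT. The 8 conventional dendritic cell markers summed to 650.4 and 622 CPM in Lmna-KO and 544 and 595 CPM in WT, 1 singly above and 1 below. Xcr1, Clec9a, Cd209a and Ifi205 were at 0 in Lmna-KO, and Flt3, Xcr1, Clec10a and Ifi205 at 0 in WT. The class held 631965 and 562429 UMIs in Lmna-KO and 3215346 and 2783240 UMIs in WT, so a 0 says less in Lmna-KO. The 6 lists with lower sums in Lmna-KO were those of plasma cells, CD4, CD8, regulatory and gamma-delta T cells and endothelial cells. The plasma cell, CD4, CD8 and gamma-delta T cell sums were at most 6.11 CPM in any library. They lay near the level that a count of 0 allows in Lmna-KO, given below. Regulatory T cell markers summed to 11.1 and 16.0 CPM in Lmna-KO and 21.1 and 16.9 CPM in WT. Endothelial markers summed to 31.6 and 30.2 CPM in Lmna-KO and 40.4 and 32.7 CPM in WT. The 6 classical monocyte markers summed to 185 CPM in Lmna-KO 1 and 651 CPM in Lmna-KO 2, and to 626 and 679 CPM in WT, so Lmna-KO 1, which had the highest Chmp2b level, stood apart from the other 3 libraries in these markers. Chmp2b is lower in neutrophil-like cells (24.0 CPM) and higher in nonclassical monocyte-like cells (116 CPM) than in alveolar macrophage-like cells. The part of these cells in the Chmp2b difference was not tested.

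In the other 7 classes none of the 10 genes was called by edgeR or by the DESeq2 Wald test. The share of all genes called by edgeR was 0.723% in B cell-like, 0.69% in CD4 T cell-like, 0.386% in CD8 T cell-like, 0.623% in NK cell-like, 0.419% in classical monocyte-like, 0.532% in neutrophil-like and 0.784% in nonclassical monocyte-like cells. At an unadjusted edgeR p under 0.05 there were 2, 0, 0, 1, 2, 1 and 1 of the 10 genes in these classes in that order, and 0 in each by DESeq2. They were Chmp6 in B cell-like, NK cell-like and classical monocyte-like cells, Vps4b in B cell-like and both monocyte-like classes, and Chmp4b in neutrophil-like cells.

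Chmp4b had a positive log2 fold change in each class, as did 8.02% of the 4554 genes tested in every class. Its value lay between 0.09 (CD8 T cell-like) and 0.41 (alveolar macrophage-like). In neutrophil-like cells it had 315 and 284 CPM in Lmna-KO and 246 and 218 CPM in WT (0.34 ± 0.15, edgeR adjusted p = 0.608), and in CD4 T cell-like cells 175 and 174 CPM in Lmna-KO and 126 and 149.7 CPM in WT (0.24 ± 0.14, edgeR adjusted p = 0.629). The libraries overlapped only in CD8 T cell-like cells, and the share of all genes that do so in so few classes was not counted. Averaged over the 8 classes with equal weight, Chmp4b had 251 and 234 CPM in Lmna-KO and 199 and 206 CPM in WT, a ratio of 1.20. The exact two-sided permutation p was 0.333, which is the smallest that 2 libraries against 2 allow. The 8 classes come from the same 4 libraries and are not independent repeats.

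Vps4b was below 0 in 7 classes and Chmp6 above 0 in 6. The same sign in at least 7 of the 8 classes was seen in 35.7% of all genes tested in every class. It was seen in 6 of the 10 genes, Chmp2a, Chmp3, Chmp4b, Vps4a, Vps4b and Ist1, and not in Chmp6. In classical monocyte-like cells Vps4b had 59.0 and 55.3 CPM in Lmna-KO and 77.4 and 68.3 CPM in WT (-0.35 ± 0.16, edgeR adjusted p = 0.625), and in nonclassical monocyte-like cells 71.6 and 67.0 CPM in Lmna-KO and 89.6 and 92.2 CPM in WT (-0.37 ± 0.15, edgeR adjusted p = 0.402). The exception was NK cell-like cells, with 89.8 and 95.03 CPM in Lmna-KO and 86.4 and 84.1 CPM in WT. Chmp6 had 39.1 and 31.0 CPM in classical monocyte-like cells of Lmna-KO and 23.5 and 16.5 CPM in those of WT (0.82 ± 0.25, edgeR adjusted p = 0.296), and 27.4 and 24.6 CPM in B cell-like cells of Lmna-KO and 16.3 and 18.3 CPM in those of WT (0.53 ± 0.18, edgeR adjusted p = 0.359). In nonclassical monocyte-like cells Chmp6 went the other way, with 24.9 and 23.9 CPM in Lmna-KO and 29.7 and 24.9 CPM in WT (-0.14 ± 0.23, edgeR adjusted p = 0.905). None of these passed the threshold.

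Counts of genes whose libraries did not overlap varied by class. In B cell-like cells 5 of the 10 genes were above in both Lmna-KO libraries and 2 below, where 25.9% and 13.5% of genes with at least 20 UMIs in the class were. In CD4 T cell-like cells there were 1 above and 0 below (30.9% and 11%), and in CD8 T cell-like cells 3 above and 1 below (26.7% and 12.9%). NK cell-like cells had 5 above and 1 below (19.5% and 17.9%), classical monocyte-like cells 2 above and 1 below (19.8% and 18.2%), neutrophil-like cells 4 above and 0 below (21.1% and 15.2%), and nonclassical monocyte-like cells 2 above and 5 below (18% and 21.1%). Ist1 was below in 4 classes and above in none. The share of all genes that do so was not counted, and the classes share the same 4 libraries. In NK cell-like cells Ist1 had 44.4 and 42.3 CPM in Lmna-KO and 54.2 and 55.0 CPM in WT (-0.34 ± 0.20, edgeR adjusted p = 0.717).

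**Figure D4:**
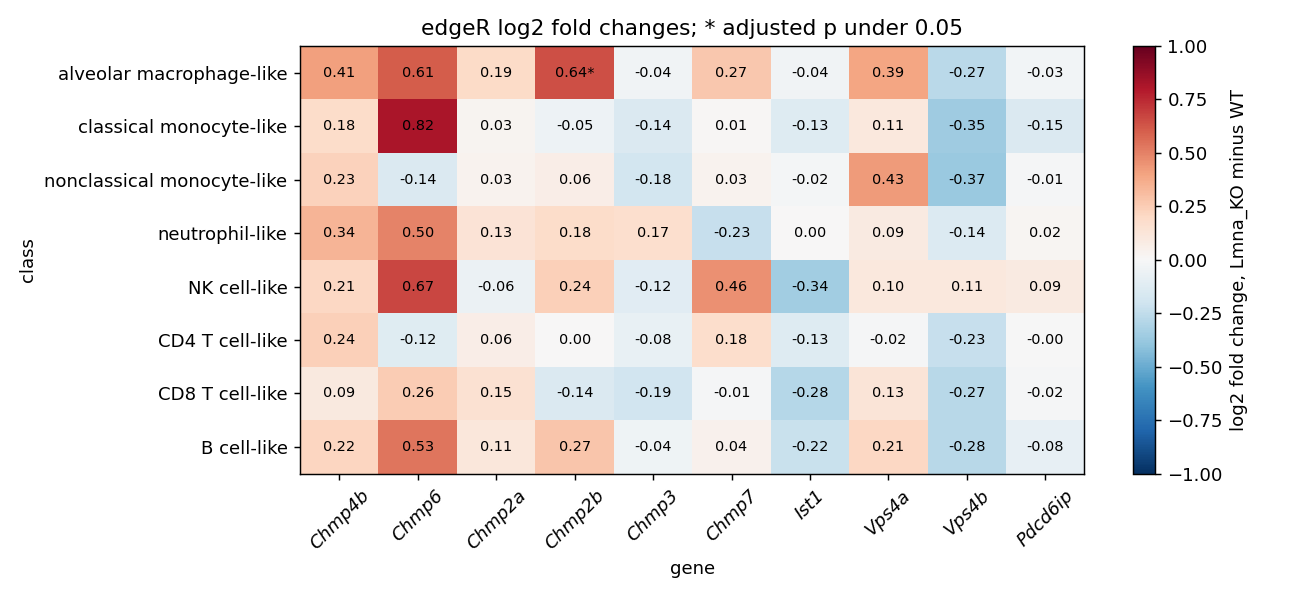
Log2 fold change of each gene (x axis), Lmna-KO minus WT, in each class (y axis), coloured red for higher and blue for lower in Lmna-KO; an asterisk marks an edgeR adjusted p under 0.05. Chmp2b in alveolar macrophage-like cells carries the only asterisk, and Chmp4b runs from 0.09 to 0.41 over the classes.

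A further test asked whether the genotype difference in alveolar macrophage-like cells departed from the average over the remaining 7 classes. None of the 10 genes was called by edgeR or DESeq2, where edgeR called 5.02% of the 6813 genes tested. Chmp2b had the largest difference, 0.53 ± 0.20 on the log2 scale (edgeR adjusted p = 0.116). At an unadjusted p under 0.05 there was 1 of the 10 genes in edgeR, Chmp2b, and 1 in DESeq2. Chmp4b differed by 0.17 ± 0.11 (edgeR adjusted p = 0.443), so its larger value in alveolar macrophage-like cells was not separated from that in the other classes.

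A wider list of 47 genes that work upstream, downstream or beside ESCRT-III was read in the same fits. In alveolar macrophage-like cells edgeR called 3 of the 41 tested, a share near the 6.96% of all genes called in that fit. All 3 were higher in Lmna-KO, as were 3.88% of all genes in that fit, and stood among the 10 genes of other membrane repair. Anxa1, a calcium-dependent membrane-binding annexin, had 623 and 549 CPM in Lmna-KO and 378 and 367 CPM in WT (0.73 ± 0.13, edgeR adjusted p = 7.9e-04). S100a11, the calcium-binding partner of annexins A1 and A2, had 1131 and 1129 CPM in Lmna-KO and 804 and 885 CPM in WT (0.49 ± 0.13, edgeR adjusted p = 0.0165). Dysf, which encodes the muscle membrane repair protein dysferlin, had 12.7 and 19.6 CPM in Lmna-KO and 5.91 and 3.95 CPM in WT, from 8 and 11 UMIs in Lmna-KO and 19 and 11 UMIs in WT (1.73 ± 0.49, edgeR adjusted p = 0.0296). Both Lmna-KO libraries lay above both WT libraries for all 3, as for 19.6% of genes with at least 20 UMIs. The S100a11 call was lost without WT 1 (edgeR adjusted p = 0.336) or WT 2 (0.0797), and the Dysf call without WT 1, WT 2 or Lmna-KO 2 (edgeR adjusted p = 0.417, 0.456 and 0.284), with the DESeq2 Wald test (adjusted p = 0.292) and with Leiden clusters (edgeR adjusted p = 0.0556).

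No gene was called in alveolar macrophage-like cells among the 6 tested cofactors of ESCRT-III and VPS4, the 2 of ESCRT-0, 6 of ESCRT-I, 2 of ESCRT-II, 5 partners of ALIX, 3 deubiquitinases or 7 nuclear envelope partners. Of all 41 genes tested, 10 had an unadjusted edgeR p under 0.05 and DESeq2 called 2. In B cell-like cells the wider list gave 1 call, Anxa2, another membrane-binding annexin, with 14.8 and 28.3 CPM in Lmna-KO and 55.2 and 56.0 CPM in WT (-1.40 ± 0.25, edgeR adjusted p = 0.0448). A cluster of S100a6-high B cell-like cells, 1.81% and 1.89% of the class in Lmna-KO and 3.49% and 3.67% in WT, held 30 of 54 and 78 of 115 of its Anxa2 UMIs in Lmna-KO and 198 of 237 and 149 of 205 in WT. Without that cluster the log2 fold change was -0.73 (edgeR adjusted p = 0.644). It was also not called in thinned cells (edgeR adjusted p = 0.464), without WT 1 (0.746) or without WT 2 (0.337). The other 6 classes had 0 calls by edgeR or DESeq2 on the wider list, with 2 to 7 genes at an unadjusted edgeR p under 0.05.

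Genes that followed these patterns most closely were ranked by Pearson's r over the 32 sums of library and class, among 5991 genes of at least 20 CPM on average. For Chmp2b they were Dram2 (r = 0.935), Mrpl14 (0.932), Tmem51 (0.931), Laptm4a (0.931) and Cept1 (0.929). For the sum of the 10 genes they were Arpc2 (0.962), Rac1 (0.961), Coro1c (0.958), Klf10 (0.955) and Naip2 (0.954). These are descriptions of the 32 sums, which share libraries and classes, and they have no p.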

How the data were processed

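Each library has 1 deposited matrix of UMI counts, whole numbers for every gene in every barcode, which the authors did not normalize. Cell Ranger 3.0.2, Seurat 3.0.0 and the build mm10 are named in the submitters' processing notes, whose order and parameters are not given in the sources used here. Barcodes were kept when they had 200 or more genes and no more than 10% mitochondrial UMIs (15181), and the highest doublet scores, 0.8% per 1000 cells of a library, were removed (461). Gates on 143 markers of 24 classes named the cells; Leiden clusters (scanpy 1.11.5), built without the 10 genes, the wider list and Lmna, were an alternative. UMIs were summed per library and class and tested with edgeR 4.0.16 (filterByExpr, TMM, robust quasi-likelihood, Benjamini-Hochberg over all genes of a fit, threshold 0.05), with DESeq2 1.42.0 as an alternative; the fits were tested on simulated counts. The difference between classes used genes with at least 10 UMIs in every class.

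Errors beside log2 fold changes are standard errors from the fit, and errors beside means are SDs over libraries. In no class were the replicate libraries as close as counting alone would make them (chi-square over its degrees of freedom, 2.00 to 7.32). Coordinates came from GENCODE M21 on mm10. Other settings were another scaling, no filter on low counts, the replicate number as a block, stricter mitochondrial and no doublet filters, thinned cells and leaving out each library; no composition scaling and the B cell-like class without its S100a6-high cluster were chosen after seeing the data. The genes and lists were chosen with earlier results of these data known. The text names the 10 genes, Lmna, each gene of the wider list past the threshold, and the 5 genes most alike in pattern to Chmp2b and to the sum. Of the wider list, Hgs matched 2 identifiers and was left out.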

Additional observations from a re-analysis of the deposited data

Results flagged for a closer look

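S100a11 had a larger log2 fold change in alveolar macrophage-like cells than the average of the other classes. The difference was 0.50 ± 0.14 (SE, edgeR adjusted p = 0.0429), and S100a11 was flagged because this difference passed the threshold. It was 1 call among the 40 genes of the wider list tested in this way, where 5.02% of all 6813 genes were called. Its own log2 fold change, Lmna-KO minus WT, was 0.49 in alveolar macrophage-like and 0.39 in CD4 T cell-like cells, and between -0.28 and -0.00 in the other 6 classes. The difference was 0.43 without Lmna-KO 1 (edgeR adjusted p = 0.378), 0.53 without Lmna-KO 2 (0.255), 0.61 in thinned cells (0.127) and 0.40 without composition scaling (0.0779).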

How the results depend on the processing

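Between classes, the number of the 10 genes called in either direction stayed within 1.5 times in all 94 alternatives run, but the split by direction did not. Without composition scaling NK cell-like cells had 5 higher and 2 lower, against 2 and 5, and neutrophil-like cells 5 and 5, against 5 and 2; classical monocyte-like cells had 2 lower with DESeq2 size factors, against 0. Without that scaling Chmp2a and Chmp4b in NK cell-like cells turned to 0.129 and 0.0733 on the log2 scale. Between genotypes, the count of 1 in alveolar macrophage-like cells was 0 with the DESeq2 Wald test, Leiden clusters, thinned cells and no composition scaling, and 0 to 1 when a library was left out; it was 0 in every alternative run in the other 7 classes. With the replicate number as a block, Chmp2b had 0.64 (edgeR adjusted p = 0.0404), and this pairing changed no call of the 10 genes. The libraries share only a number, and same-numbered libraries deviated together with r of 0.0158 to 0.110. In alveolar macrophage-like cells thinning turned Chmp2a to -0.0486, Vps4b to 0.0542 and Pdcd6ip to 0.10, and the cause was not tested.

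When a library was left out, these log2 fold changes spanned 0: Chmp3 from -0.20 to 0.0924, Chmp7 from -0.14 to 0.62, Ist1 from -0.19 to 0.0863 and Pdcd6ip from -0.12 to 0.0567 in alveolar macrophage-like cells, Chmp4b from -0.011 to 0.20 in CD8 T cell-like cells, and Lmna from -0.70 to 0.34 in CD4 T cell-like and from -0.18 to 0.87 in classical monocyte-like cells. Lmna in classical monocyte-like cells was -0.00794 with Leiden clusters. In B cell-like cells Lmna was -1.21 with no filter on low counts and -1.19 with the block, both then called, and -1.50 to -0.84 when a library was left out. The S100a6-high cluster, rarer in Lmna-KO, held 10 of 22 and 8 of 21 Lmna UMIs of the class in Lmna-KO and 49 of 66 and 27 of 35 in WT. Its part in the Lmna difference was not tested. In NK cell-like cells Lmna was -1.85 with DESeq2 and -1.86 with the block, neither called, and -2.68 to -1.35 when a library was left out. Thinned shares of alveolar macrophage-like cells with a UMI averaged 49.2% in Lmna-KO and 34.0% in WT for Chmp2b, and 83.9% in WT for Chmp4b. A limit of 5% mitochondrial UMIs left too few alveolar macrophage-like cells (27 and 16 in Lmna-KO, 69 and 93 in WT) and B cell-like cells (18 and 64 in Lmna-KO, 32 and 24 in WT) to test. A count of 0 in alveolar macrophage-like cells allows up to 5.33 CPM in Lmna-KO 2 and 0.933 CPM in WT 1.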

Other observations

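Classes with fewer than 25 cells in some library were left untested. The regulatory T cell-like class (51 and 60 cells in Lmna-KO, 35 and 20 in WT) had summed levels of the 10 genes of 823 and 821 CPM in Lmna-KO and 741 and 686 CPM in WT, above both conventional T classes in every library. Its Chmp4b level was 214 and 216 CPM in Lmna-KO and 146 and 189 CPM in WT. Conventional dendritic cell-like cells (16 and 26 cells in Lmna-KO, 16 and 20 in WT) had 322 and 216 CPM of Chmp4b in Lmna-KO and 202 and 218 CPM in WT. The T cell precursor-like cells of WT 2 had 124 CPM of Chmp4b and 111 CPM of Pdcd6ip.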
